A study of Mus musculus with 50 samples.

Results

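Receptor blockade and ligand blockade of the same pathway were compared in the adult mouse thyroid 5 days after treatment: antibodies against the receptors Notch1 and Notch2 (aN1aN2), and antibodies against the ligands Jag1 and Jag2 (aJ1aJ2). The comparison holds 9 of the 50 RNA-seq libraries of the study, 5 of aN1aN2 and 4 of aJ1aJ2. A library was taken if Tg, the gene of thyroglobulin, accounted for at least 5% of all its counts. That rule left out aJ1aJ2 replicate 3 (2.39%), whereas the lowest library inside it was aN1aN2 replicate 1 (8.80%). Thyroids after an anti-ragweed isotype antibody (RW) served as the common control, with 4 of 5 libraries kept, since RW replicate 3 had Tg at 0.450%. The fit therefore held 13 of the 15 libraries taken at 5 days.

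All mice were C57BL/6 males, 10 to 12 weeks old in the design text and 10 to 14 in the treatment protocol, with no genetic alteration named in the labels. Each received its antibodies once, by the intraperitoneal route. The doses were 40 mg/kg for RW, 20 mg/kg each of anti-Jag1 and anti-Jag2, and 5 and 10 mg/kg of anti-Notch1 and anti-Notch2. Jag2 and Jag1 are only part of the ligand family, and Notch3 and Notch4 were not targeted by aN1aN2, so the arms differ in which signals they leave in place. The series also describes injections of thyroid hormones, and no label says whether any mouse used here received them. Nothing in the labels states how the replicates were housed or processed, so p-values measure the spread between these libraries.

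Notch receptors are cut when a ligand on a neighbouring cell binds them, and the freed intracellular part joins the DNA-binding protein Rbpj to switch on genes such as Hes1, Hey1, Heyl and Nrarp. Jag1 and Jag2 belong to the Jagged ligands, whereas Dll1 and Dll4 belong to the Delta-like ligands, which act through the same receptors. In blood vessels, Delta-like signals help to set arterial identity and to limit sprouting, and Jag1 and Notch3 support the mural cells (pericytes and smooth muscle) around them. The thyroid is made of follicles whose epithelium secretes thyroglobulin through the endoplasmic reticulum (ER), and each follicle is wrapped in a dense bed of fenestrated capillaries.

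The promoters shown are those of a pair of genes called between the blockades, and of a pair from the circadian clock that rose after both. They run from 250 bases before the start of transcription to 50 after it, 5′ to 3′, as RefSeq places them on GRCm38.p6. Capitals mark every match in these windows to 1 of 4 short motifs, each searched on both strands: GCGTG, the core bound by the aryl hydrocarbon receptor, TGGGAA, the core bound by Rbpj, CACGTG, the E-box bound by the clock activators, and TTATGTAA, the D-box bound by Dbp and Tef. Cyp1a1, chr9:57697363-57697662, plus strand, holds 1 match, GCGTG, that starts 54 bases before the start site.
Cyp1a1: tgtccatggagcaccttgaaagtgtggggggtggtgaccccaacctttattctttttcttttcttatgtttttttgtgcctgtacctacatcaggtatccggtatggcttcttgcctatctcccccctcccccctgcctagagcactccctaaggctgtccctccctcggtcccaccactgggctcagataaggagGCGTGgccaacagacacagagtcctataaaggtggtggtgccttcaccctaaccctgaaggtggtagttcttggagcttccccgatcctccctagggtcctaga
Sema3g, chr14:31217623-31217922, plus strand, holds 1 match, TTCCCA, which is TGGGAA on the other strand, starting 30 bases after the start site.
Sema3g: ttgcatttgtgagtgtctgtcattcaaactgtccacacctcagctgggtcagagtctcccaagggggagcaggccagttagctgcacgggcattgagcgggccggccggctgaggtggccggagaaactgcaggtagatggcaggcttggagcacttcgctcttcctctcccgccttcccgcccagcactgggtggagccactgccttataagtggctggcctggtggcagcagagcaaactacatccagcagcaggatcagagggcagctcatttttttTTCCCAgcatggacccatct
Tef has entries for 2 start sites, chr15:81802423-81802722 and chr15:81811164-81811463, plus strand, each with 1 E-box, which starts 127 and 138 bases before its start site. The first window also holds TTCCCA, 208 bases before the start, and the second holds CACGC, which is GCGTG on the other strand, 52 bases before.
Tef, first start: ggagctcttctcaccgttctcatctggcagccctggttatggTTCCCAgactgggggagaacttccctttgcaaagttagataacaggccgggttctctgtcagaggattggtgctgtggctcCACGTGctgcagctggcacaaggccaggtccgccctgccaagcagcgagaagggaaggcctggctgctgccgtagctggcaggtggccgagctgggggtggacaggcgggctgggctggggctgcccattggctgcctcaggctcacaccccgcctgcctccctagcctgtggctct
Tef, second start: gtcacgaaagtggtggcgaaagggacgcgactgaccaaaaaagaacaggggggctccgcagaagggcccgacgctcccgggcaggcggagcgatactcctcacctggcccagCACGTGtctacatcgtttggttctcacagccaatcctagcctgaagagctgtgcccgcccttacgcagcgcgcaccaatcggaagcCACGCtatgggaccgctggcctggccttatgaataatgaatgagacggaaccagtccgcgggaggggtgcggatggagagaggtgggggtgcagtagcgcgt
Per3, chr4:151044616-151044915, minus strand, holds 2 D-boxes, which start 205 and 158 bases before the start site, and CACGC 15 bases before it.
Per3: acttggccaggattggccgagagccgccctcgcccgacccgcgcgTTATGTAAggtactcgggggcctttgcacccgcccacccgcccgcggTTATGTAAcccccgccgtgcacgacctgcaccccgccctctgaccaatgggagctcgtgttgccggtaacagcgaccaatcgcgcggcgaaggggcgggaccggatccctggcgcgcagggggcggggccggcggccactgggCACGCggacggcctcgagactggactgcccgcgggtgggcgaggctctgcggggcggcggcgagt
Over the 32544 promoters of the same length in the table, 32.6% held GCGTG, 25.4% held TGGGAA, 7.17% held CACGTG and 0.931% held TTATGTAA on either strand. A match describes the letters in the window and nothing more.

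Total counts ran from 23.8 to 52.8 M per library. Tg, which chose them, took 38.8%, 38.3%, 34.0% and 40.3% of counts in RW, 24.7%, 42.4%, 38.0% and 39.4% in aJ1aJ2, and 8.80%, 33.6%, 41.3%, 13.9% and 40.4% in aN1aN2. The lowest 2 libraries, aN1aN2 replicates 1 and 4, also carried the most skeletal muscle RNA. All 9 genes of a skeletal muscle list were measured, and together they took 0.133% to 1.27% of counts in RW, 0.213% to 2.3% in aJ1aJ2 and 0.317% to 8.89% in aN1aN2. Replicate 4 of aN1aN2 also held 0.106% of counts in a thymus list, of which 4 of 6 genes passed the count filter, against at most 0.00144% in aJ1aJ2. Cartilage genes reached 0.0658% in aN1aN2 replicate 1. For several results that these 2 libraries touch, the value from the 7 libraries in which Tg was at 20% or more is also given, a limit added after the data were seen. In whole tissue, fewer cells of a type and less RNA per cell cannot be told apart.

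**Figure D1:**
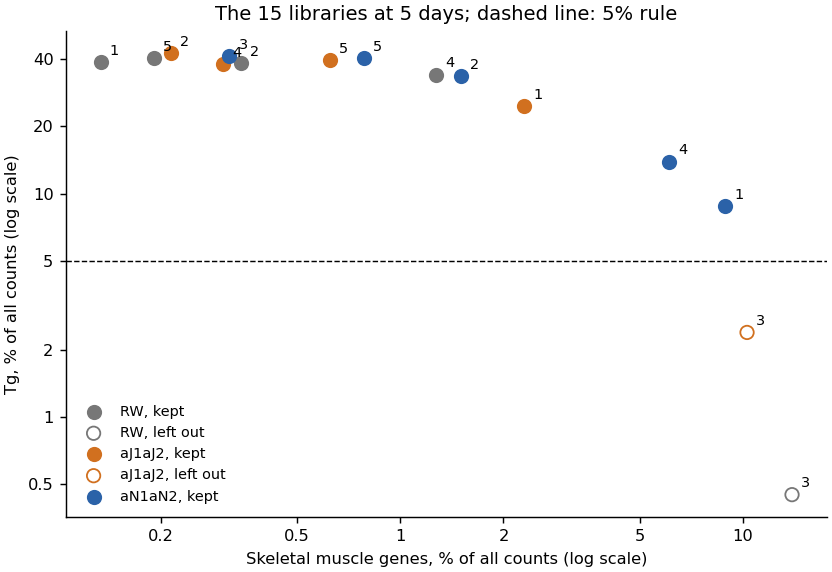
Share of counts taken by Tg (y axis, percent, log scale) against the summed share of 9 skeletal muscle genes (x axis, percent, log scale) in each of the 15 libraries at 5 days; numbers are replicates, filled points were kept and open points left out by the 5% rule (dashed line). aN1aN2 replicates 1 and 4 sit closest to the line among the kept libraries, with Tg at 8.80% and 13.9%.

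Few genes were called between the blockades, and a gene that was not called may still differ. Of 18529 genes tested, 3 were called between aN1aN2 and aJ1aJ2 (0.0162%; edgeR quasi-likelihood test, adjusted p under 0.05), 2 higher (0.0108%) and 1 lower (0.0054%) after receptor blockade. Before adjustment 1845 genes had p under 0.05 (9.96%). In CPM (normalised counts, on the TMM-scaled library size), 344 genes (1.86%) had every library of one blockade above every library of the other. The precision was moderate: the 95% interval of the difference had a median half-width of 0.48 on the log2 scale, and it lay within 2-fold in either direction for 12710 genes (68.6%). For the remaining genes the interval reached past 2-fold.

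Cyp1a1, a cytochrome P450 enzyme induced through the aryl hydrocarbon receptor, showed the largest of the called differences. Its level was 2.37, 1.90, 3.27 and 2.20 CPM in RW, 0.0734, 0.108, 0.159 and 0.0265 CPM in aJ1aJ2, and 1.24, 0.641, 1.57, 0.71 and 1.04 CPM in aN1aN2. The 3 groups did not overlap, with RW highest and aJ1aJ2 lowest. It was 10.9-fold higher after aN1aN2 than after aJ1aJ2 (log2 fold change 3.45, SE 0.43, edgeR adjusted p = 0.0435), on 13 counts summed over the aJ1aJ2 libraries and 198 over aN1aN2. Against RW it fell by 4.67 on the log2 scale after aJ1aJ2 (adjusted p = 0.00158, edgeR), and after aN1aN2 the change of -1.22 did not pass (adjusted p = 0.0926, edgeR). In the left-out aJ1aJ2 library it stood at 0.319 CPM, between the kept libraries of its group and those of aN1aN2, and in the left-out RW library at 1.16 CPM.

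Sema3g and Sema6a encode semaphorins, guidance proteins of which the first is secreted, with arterial endothelium as a known source, and the second is anchored in the membrane. Sema3g was at 21.0, 20.5, 21.8 and 22.2 CPM in RW, 12.1, 14.3, 13.4 and 13.7 in aJ1aJ2, and 23.1, 18.3, 24.0, 21.7 and 25.9 in aN1aN2. It was 1.69-fold higher after aN1aN2 than after aJ1aJ2 (log2 fold change 0.76, SE 0.10, edgeR adjusted p = 0.0435), and aN1aN2 lay at the level of RW. Sema6a was at 11.4, 9.47, 9.62 and 10.1 CPM in RW, 14.6, 15.5, 15.8 and 15.7 in aJ1aJ2, and 9.58, 10.5, 9.75, 9.04 and 10.5 in aN1aN2, a difference of -0.64 (SE 0.09, edgeR adjusted p = 0.0435). Against RW after aJ1aJ2, Sema3g fell by 0.68 (adjusted p = 0.0138, edgeR) and Sema6a rose by 0.60 (adjusted p = 0.0136, edgeR). After aN1aN2 they stood at 0.08 and -0.04 (adjusted p = 0.646 and 0.802, edgeR). The call was narrow for all 3 genes: each adjusted p was 0.0435, and leaving out 1 library at a time the call held in 2 of 13 fits for Cyp1a1, in 1 for Sema3g and in 0 for Sema6a, with fold changes of 3.13 to 3.87, 0.70 to 0.84 and -0.67 to -0.60.

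Another 17 genes were named by rank, as those of lowest p in each direction with a mean of at least 1 CPM whose groups did not overlap. None of them passed the threshold. The 8 that stood higher after aN1aN2 were Tm4sf1, Bmp6, Ptprr, Col6a3, Mfap4, Tuba1a, Bgn and Heg1. Tm4sf1, a membrane protein of endothelium, was at 47.3, 46.1, 51.1 and 46.3 CPM in RW, 29.8, 30.5, 31.6 and 25.7 in aJ1aJ2, and 53.3, 37.8, 47.7, 46.9 and 48.1 in aN1aN2, a difference of 0.67 (SE 0.10, edgeR adjusted p = 0.0571). Its aJ1aJ2 libraries lay below all RW and all aN1aN2 libraries. Heg1, which anchors endothelial junctions, differed by 0.33, with 73.8 to 81.1 CPM in aJ1aJ2 against 90.2 to 107 in aN1aN2. Bmp6, a ligand of the bone morphogenetic protein family, ranged from 2.42 to 3.37 CPM in aJ1aJ2 and from 5.31 to 11 in aN1aN2, with its 2 highest values in replicates 1 and 4, and its difference in the 7 libraries of highest Tg was 1.04 (adjusted p = 0.0643, edgeR). Mfap4, a protein of the microfibrils around elastic fibres, differed by 1.95 with 9 libraries and by 0.89 with those 7 (adjusted p = 0.124, edgeR). The exons of Bmp6 overlap those of Txndc5 on the other strand, and the use of strand in counting is not given. The assignment of Bmp6 reads is therefore uncertain. Ptprr and Mfap4 carry the same doubt through 4933416C03Rik and Mapk7, and Heg1 through Gm15657, as does Exoc3l, named next, through Gm20163.

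The 9 genes that ranked lower after aN1aN2 were Mgl2, Aplnr, Csf3r, Scarb1, Gpihbp1, Sema6b, Esam, Exoc3l and Rgs5. Aplnr, the receptor of the vascular peptide apelin, was at 27.5, 24.5, 30.1 and 19.9 CPM in RW, 27.4, 62, 72.6 and 52.2 in aJ1aJ2, and 18.5, 16.5, 21.5, 12.9 and 17.7 in aN1aN2, a difference of -1.62 (SE 0.24, edgeR adjusted p = 0.0571). Of the aJ1aJ2 libraries, replicate 1 lay among the RW values. Scarb1, the receptor for high-density lipoprotein, was at 54.2, 49.0, 46.5 and 52.2 CPM in RW, 73.8, 115, 127 and 115 in aJ1aJ2, and 29.7, 48.9, 56.5, 33.4 and 54.7 in aN1aN2, a difference of -1.27 (adjusted p = 0.0906, edgeR). The low values of aN1aN2 were again replicates 1 and 4, and without them the difference was -1.01. Gpihbp1, which carries lipoprotein lipase across the capillary wall, was at 13.9 to 17.4 CPM in RW, 23.8 to 38.8 in aJ1aJ2 and 14.2 to 20.1 in aN1aN2. It rose after aJ1aJ2 (log2 fold change 1.11, adjusted p = 0.0127, edgeR) and stood at 0.23 after aN1aN2 (adjusted p = 0.362, edgeR).

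The remaining genes of that rank include 2 of myeloid cells. Mgl2, a lectin of macrophages and dendritic cells, was at 7.48 to 9.46 CPM in RW, 11.5 to 20.2 in aJ1aJ2 and 6.64 to 8.92 in aN1aN2 (difference -1.03). Csf3r, the receptor through which G-CSF acts on neutrophils, was at 1.60 to 2.08, 2.18 to 3.03 and 1.04 to 1.32 CPM (difference -1.05). The acute phase and neutrophil list, with 7 of 9 genes tested, held 0 calls, 3 genes higher and 4 lower after aN1aN2, and a median of -0.44, which was -0.90 with 0 called in the 7 libraries of highest Tg. S100a8, a calcium-binding protein of neutrophils, ranged from 0.688 to 1.25 CPM in aJ1aJ2 and from 0.0337 to 0.295 in aN1aN2, and its partner S100a9 from 0.860 to 2.17 and from 0.0737 to 0.628, whereas Ltf stood higher after aN1aN2. The left-out aJ1aJ2 library stood far above both groups, at 217 CPM for S100a8, 381 for S100a9 and 29.1 for Csf3r. By contrast, 11 of 11 macrophage and dendritic genes passed the filter, 0 were called and 0 did not overlap, with a median difference of -0.04.

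For 17 of these 20 genes the aJ1aJ2 estimate lay farther from RW than the aN1aN2 estimate did. That count describes genes chosen for their difference, so it is no test of which blockade acts more broadly. The left-out aJ1aJ2 replicate 3 fell on the aJ1aJ2 side of every aN1aN2 library for 9 of the 20. At 15 hours, in other mice, the sign of the difference was the same for 9 of 20 genes (70.0% of all genes tested at both times). Sema3g was then at -0.65 (adjusted p = 0.114, edgeR), the opposite sign to 5 days, and Cyp1a1 at -0.18 (adjusted p = 0.919, edgeR). Rgs5 was at 0.92 (adjusted p = 0.0403, edgeR), again opposite. The 15-hour aN1aN2 libraries share their FPKM scaling with the 5-day groups and not with the other 15-hour groups, and the change between times was not tested.

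**Figure D2:**
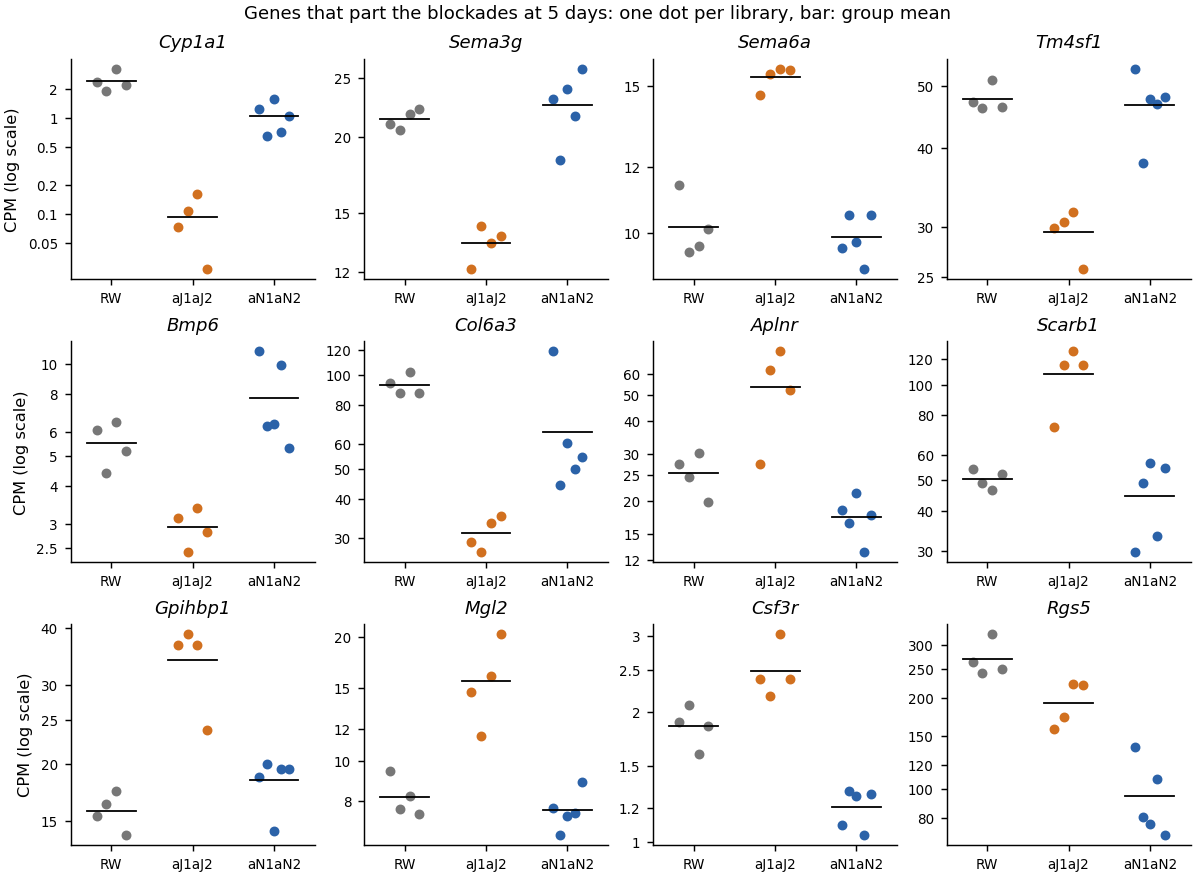
Level of 12 genes in CPM (y axis, log scale, its own range in each panel) in each library of RW, aJ1aJ2 and aN1aN2 at 5 days; dots are libraries and bars are group means. Cyp1a1, Sema3g and Sema6a were called between the blockades, and the other 9 were named by rank. In every panel the aJ1aJ2 and aN1aN2 dots do not overlap, which for those 9 was part of the naming rule.

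Rgs5, a regulator of G-protein signalling that marks pericytes, was lowest after receptor blockade. It was at 264, 242, 326 and 250 CPM in RW, 158, 173, 223 and 221 in aJ1aJ2, and 138, 80.8, 76.6, 108 and 70.4 in aN1aN2. The order was RW, aJ1aJ2, aN1aN2 with no overlap between neighbours. Against RW it fell by 1.51 (SE 0.20) after aN1aN2 (adjusted p = 0.0209, edgeR), and after aJ1aJ2 the change was -0.48 (adjusted p = 0.296, edgeR). The difference of -1.03 (SE 0.20) between the blockades did not pass with 9 libraries (adjusted p = 0.241, edgeR) and did with the 7 libraries of highest Tg (-1.34, adjusted p = 0.0132, edgeR). The 5 genes called in those 7 libraries were Fscn1 (-1.41), Rgs5, Rbp7 (1.17), Cyp1a1 (3.52) and Ptprb (0.64), of which only Cyp1a1 was among the 3 called with 9.

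The pericyte list held 11 genes, all measured. Between the blockades 2 were higher, 9 lower and 0 called, with a median of -0.37 beside 0.0014 over all genes tested. Against RW, 0 were called after aJ1aJ2, against 1.31% of all genes, and 2 were called lower after aN1aN2, namely Rgs5 and Notch3, against 0.308% of all genes. The median was -0.29 after aJ1aJ2 and -0.45 after aN1aN2. In the libraries of highest Tg it was -0.31 with 2 called after aJ1aJ2 and -0.70 with 3 called after aN1aN2. Of all genes, 1600 and 182 were called there, the former on unchanged aJ1aJ2 and RW libraries. After aN1aN2 the median was -0.93 with all 15 libraries and -0.78 with the muscle share as a covariate. Pdgfrb, the growth factor receptor that recruits pericytes, differed by -0.16 between the blockades. Cox4i2, a cytochrome c oxidase subunit, differed by -1.21 at 0.355 to 1.12 CPM in aN1aN2. The 2 that stood higher after aN1aN2 were Abcc9 (0.72, with means of 89.1 CPM in aJ1aJ2 and 147 in aN1aN2) and Cspg4 (0.61).

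The Notch pathway itself showed the same ranking for some targets and not for others. Notch3, a receptor that is also a target of Notch in mural cells, was at 38.5, 38.6, 39.6 and 39.9 CPM in RW, 19.7, 29.9, 27.9 and 31.3 in aJ1aJ2, and 14.1, 16.5, 24.6, 19.7 and 22.0 in aN1aN2. Every treated library lay below every RW library, a gap in either direction that 15.2% of all genes showed after aJ1aJ2 and 7.51% after aN1aN2. It fell by 1.01 (SE 0.16) after aN1aN2 (adjusted p = 0.0281, edgeR), the change after aJ1aJ2 was -0.52 (adjusted p = 0.161, edgeR), and the difference of -0.49 was not called (adjusted p = 0.466, edgeR). With skeletal muscle RNA as a covariate the aN1aN2 call was lost (-0.78, adjusted p = 0.0927, edgeR). Notch3 exons overlap Gm17276 on the other strand, so its reads are uncertain. Heyl, a transcriptional repressor switched on by Notch, was at 33.5, 50.2, 42.6 and 44.4 CPM in RW, 14.4, 27.7, 29.0 and 25 in aJ1aJ2, and 10.0, 15.7, 28.8, 13.3 and 20.2 in aN1aN2. Both treated groups lay below RW, overlapped each other, and were not called (-0.83 and -1.28, adjusted p = 0.197 and 0.0723, edgeR).

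Hey1, the related repressor of arterial endothelium, leaned the other way. It was at 6.95, 7.79, 9.28 and 7.11 CPM in RW, 5.29, 5.03, 5.53 and 3.81 in aJ1aJ2, and 6.18, 5.73, 8.33, 7.48 and 6.63 in aN1aN2. All aJ1aJ2 libraries lay below all others, and the difference of 0.48 (SE 0.16) was not called (adjusted p = 0.466, edgeR). Hes1, the most widely used target, overlapped throughout: 31.7 to 61.0 CPM in RW, 26.3 to 48.0 in aJ1aJ2 and 18.8 to 45.8 in aN1aN2. Hey2 ranged from 1.67 to 8.72 CPM in aN1aN2 alone, wider than in the other groups. Dtx1, a ubiquitin ligase of the pathway, ranged from 1.53 to 12.3 CPM over all 13 libraries. Nrarp, a feedback inhibitor, rested on 14, 46 and 38 counts summed over RW, aJ1aJ2 and aN1aN2 and was not called in any comparison. Its exons overlap Gm38287 on the other strand. Hes5 had 0, 1 and 1 counts and was not tested. Of the 8 readouts 7 were tested, and 2 were higher and 5 lower after aN1aN2 than after aJ1aJ2, with 0 called and a median of -0.35, which was -0.15 in the 7 libraries of highest Tg.

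Among the receptors, Notch4, which is mainly endothelial, was at 20.9 to 26.4 CPM in RW, 22.1 to 35.9 in aJ1aJ2 and 14.8 to 22.8 in aN1aN2, and its difference of -0.72 (SE 0.16) did not pass (adjusted p = 0.448, edgeR). The targeted receptors did not separate the arms: Notch1 differed by -0.19 (95% interval -0.71 to 0.32) and Notch2 by -0.26 (-0.82 to 0.29), and both turned to small positive values in the 7 libraries of highest Tg (0.029 and 0.073). An antibody that blocks a protein need not alter its transcript, so these levels do not check the treatment. The 5 ligand genes were all tested, with 0 called. Jag1 differed by -0.07 (-0.54 to 0.41), Jag2 by -0.05 (-0.48 to 0.37), Dll1 by -0.15 (-0.49 to 0.20), Dll3 by -0.37 (-1.20 to 0.45) and Dll4 by -0.45 (-0.91 to 0.02). The exons of Notch1, Notch2, Dll1 and Dll4 each overlap another gene, so their reads are uncertain too. For Jag1, Notch1, Notch2, Hes1, Dtx1 and Dll3 the sign of the difference changed under at least 1 alternative. For Jag2 it changed only when a single library was left out. The 23 further genes of the pathway (Rbpj, its coactivators, the cutting enzymes and the fringes) were all tested. In any of the 3 comparisons with 13 libraries 0 of them were called. After aJ1aJ2 3 were called in the libraries of highest Tg, where 1600 of all genes were, on unchanged aJ1aJ2 and RW libraries. Lfng, a fringe that changes which ligands a receptor prefers, stood at 0.96 after aJ1aJ2 (adjusted p = 0.0534, edgeR) and 0.49 after aN1aN2 (adjusted p = 0.182, edgeR), with a difference of -0.47.

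**Figure D3:**
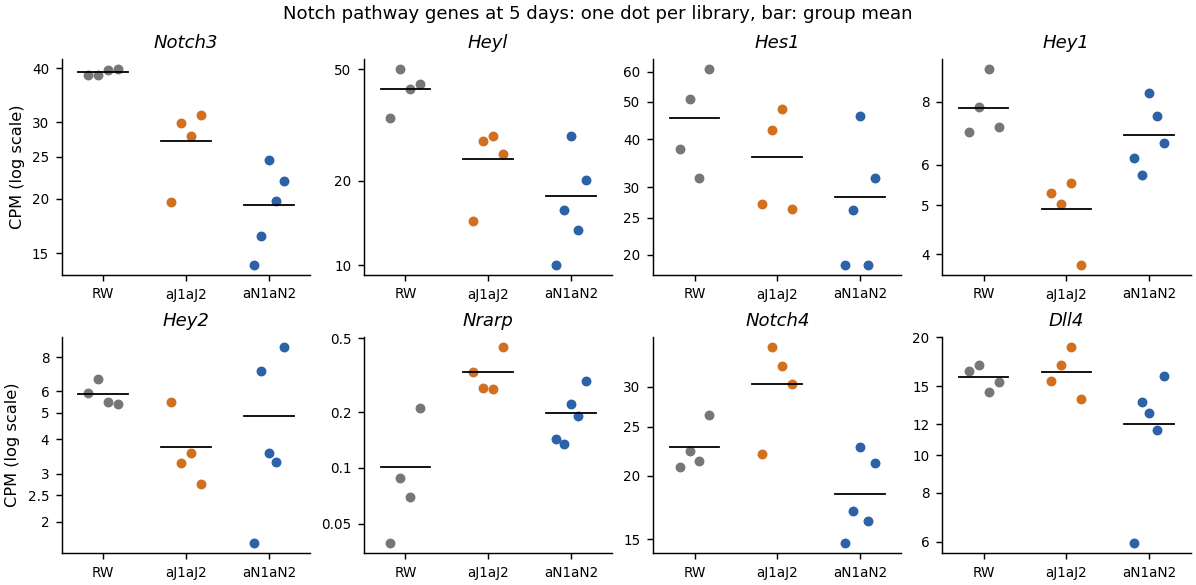
Level of 8 Notch pathway genes in CPM (y axis, log scale, its own range in each panel) in each library of RW, aJ1aJ2 and aN1aN2 at 5 days; dots are libraries and bars are group means. Notch3 and Heyl lie below RW in every treated library, and Hey1 is lowest in aJ1aJ2.

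Set against RW, 242 genes were called after aJ1aJ2 (1.31%), 107 higher and 135 lower, and 74 after aN1aN2 (0.399%), 17 higher and 57 lower. Both comparisons use the same 4 RW libraries, so their values are set side by side and no overlap is read from them. Of the 242 genes, 3 were also called between the blockades (Cyp1a1, Sema3g and Sema6a), beside 0.0162% of all genes. For 192 the interval of the difference lay within 2-fold, beside 68.6% of all genes. Of the 74, 0 were called between the blockades and for 61 the interval lay within 2-fold. The libraries of a blockade enter both of its comparisons, so these shared counts are no independent evidence. The counts of genes called rest heavily on single libraries. After aJ1aJ2 the count was 30, 17 and 31 without RW replicates 1, 2 and 5, 147, 25, 19 and 39 without aJ1aJ2 replicates 1, 2, 4 and 5, and 537, 564 and 153 without aN1aN2 replicates 1, 4 and 5. After aN1aN2, leaving out RW replicate 1, 2, 4 or 5 gave 1, 1, 269 or 12, leaving out aJ1aJ2 replicate 2, 4 or 5 gave 6, 6 or 8, and leaving out aN1aN2 replicate 2, 3 or 5 gave 39, 221 or 14. Between the blockades it was 0 in 9 of the 13 such fits, 1 without aJ1aJ2 replicate 1 or 5, 2 without aN1aN2 replicate 4 and 3 without aN1aN2 replicate 2.

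Several genes of the circadian clock rose after both blockades. Nr1d1, which encodes the repressor REV-ERB alpha, was at 44.8, 41.2, 51.6 and 44.5 CPM in RW, 142, 193, 147 and 160 in aJ1aJ2, and 188, 147, 152, 123 and 172 in aN1aN2. Every treated library was above every RW library, and the treated groups overlapped. It rose by 1.82 (SE 0.15, adjusted p = 0.000443, edgeR) after aJ1aJ2 and by 1.78 (SE 0.14, adjusted p = 0.00038, edgeR) after aN1aN2, a difference of -0.04 with a 95% interval of -0.33 to 0.26. Cry2, a repressor of the clock, rose by 1.04 after either blockade (adjusted p = 0.0107 and 0.0209, edgeR), with an interval of the difference of -0.28 to 0.27. Nr1d1 exons overlap Thra, Cry2 exons overlap D930015M05Rik, Tef exons overlap Gm17597, Dbp exons overlap Sphk2 and Arntl exons overlap Gm45355, all on the other strand, so their reads are uncertain.

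Of 17 clock genes, all tested, 6 were called higher after aJ1aJ2 (0.577% of all genes) and 6 after aN1aN2 (0.0917%), and these were Nr1d1, Nr1d2, Cry2, Per3, Tef and Dbp in both. Between the blockades 0 were called, 0 did not overlap and the median was 0.10. Tef and Dbp, transcription factors that bind the D-box, rose by 1.73 and 3.11 after aJ1aJ2 and by 2.08 and 3.32 after aN1aN2. The libraries of 1 group differed among themselves. Dbp was at 1.39, 1.2, 1.95 and 0.915 CPM in RW, 26.4, 6.51, 7.36 and 6.93 in aJ1aJ2, and 6.04, 23.6, 11.2, 6.25 and 20.9 in aN1aN2. The 3 libraries highest in Dbp, aJ1aJ2 replicate 1 and aN1aN2 replicates 2 and 5, were also the lowest in Arntl, the activator that runs opposite to Dbp over the day, at 12.3, 9.65 and 11.3 CPM against 32.5 to 62.3 in the other 10. Clock genes follow the hour of the day, and the labels used here give no hour of collection. The left-out RW replicate 3 stood with the treated libraries for some of these genes, at 193 CPM for Nr1d1, 50.1 for Cry2 and 324 for Tef, and with RW for Dbp at 2.93. With all 15 libraries Nr1d1 was not called (1.02 and 1.04, adjusted p = 0.316 and 0.349, edgeR), and neither were Cry2, Tef, Nr1d2, Per3 and Dbp, the lowest of their adjusted p-values being 0.0538.

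Genes of protein folding in the ER had negative fold changes after both blockades. All 20 genes of the ER chaperone and unfolded protein response list were tested, and 20 lay below 0 after aJ1aJ2 (46.4% of all genes did) and 20 after aN1aN2 (45.5%). The median was -1.42 with 6 called lower (0.729% of all genes) after aJ1aJ2, and -1.16 with 0 called (0.308%) after aN1aN2. Hspa5, the chaperone BiP, was at 3805, 5617, 2825 and 3956 CPM in RW, 1348, 1128, 1080 and 1166 in aJ1aJ2, and 679, 1959, 1510, 512 and 1870 in aN1aN2. All treated libraries lay below all RW libraries, and the aN1aN2 libraries fell into low values in replicates 1 and 4 and higher ones in the rest. Calr, the calcium-binding chaperone calreticulin, fell by 1.57 after aJ1aJ2 (adjusted p = 0.0284, edgeR), and after aN1aN2 it stood at -1.16 (adjusted p = 0.0751, edgeR). In the fit with Tg at 20% or more, 16 of the 20 were called after aJ1aJ2 (1600 of all genes) and 12 after aN1aN2 (182). The aJ1aJ2 and RW libraries were unchanged in that fit. The medians there were -1.44 and -0.83. Between the blockades 16 were higher and 4 lower after aN1aN2 with 9 libraries, with a median of 0.12 and 0 called. In the 7 libraries of highest Tg 17 were higher, with a median of 0.52 and 0 called.

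Serpinh1, the collagen chaperone of the ER, was among the genes named after an earlier look at these data. It was at 154, 132, 115 and 142 CPM in RW, 76.2, 54.1, 63.3 and 52.6 in aJ1aJ2, and 93.0, 65.7, 63.4, 64.4 and 65.2 in aN1aN2. It fell by 1.14 and 0.95 after aJ1aJ2 and aN1aN2 (adjusted p = 0.0127 and 0.0281, edgeR), and differed by 0.19 between them. Bet1, Tmed2 and Tmem258 were named for their low p against RW. Bet1, a fusion protein of vesicles from the ER to the Golgi, fell by 0.73 and 0.79 (adjusted p = 0.0146 and 0.0236, edgeR). Tmed2, a cargo receptor of those vesicles, fell by 0.65 and 0.43, and Tmem258, a subunit of the enzyme that adds sugars to new proteins, by 0.80 and 0.53, all 4 called. The exons of Tmem258 overlap Fen1 on the other strand. Of 10 heat shock genes of the cytosol, 10 lay below 0 against RW after each blockade (46.4% and 45.5% of all genes did) with 0 called, and between the blockades 7 were higher and 3 lower after aN1aN2.

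Collagen genes were measured next. All 16 collagens lay below 0 after aJ1aJ2 (46.4% of all genes did) with a median of -0.79 and 2 called lower (0.729% of all genes), Col3a1 and Col6a3. After aN1aN2, 15 lay below 0 (45.5% of all genes) with a median of -0.26 and 0 called lower (0.308%). That value moved with the libraries used. In those of highest Tg 16 lay below 0 after aN1aN2, with a median of -0.65 and 4 called (182 of all genes were). The median after aN1aN2 was -0.54 with all 15 libraries and -0.59 with the muscle share as a covariate. After aJ1aJ2 the same limit, which left the aJ1aJ2 and RW libraries unchanged, gave a median of -0.81 with 10 called (1600 of all genes were). Col6a3, a chain of microfibrillar collagen, was at 93.9, 87.2, 102 and 87.1 CPM in RW, 29.2, 27.1, 33.6 and 35.3 in aJ1aJ2, and 119, 44.6, 60.5, 50.0 and 54.7 in aN1aN2. Replicate 1 of aN1aN2 was above RW and the other 4 lay between the groups. The difference of 1.07 (adjusted p = 0.466, edgeR) was 0.77 in the 7 libraries of highest Tg (adjusted p = 0.062, edgeR). Col3a1, a fibrillar collagen, was at 46.4 to 88.7 CPM in aJ1aJ2 and at 450, 116, 135, 296 and 127 in aN1aN2. Its difference of 1.68 fell to 0.86 without aN1aN2 replicates 1 and 4. Over the 16 genes the median difference was 0.64, with 5 that did not overlap (1.86% of all genes did not) and 0 called, and 0.32 with 0 called in those 7 libraries.

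Within the genes of fibroblasts, direction varied from gene to gene. In that list of 11 genes, 3 (Inmt, Galnt15 and Dok5) entered because they had changed in these libraries, so they are no independent evidence. Dok5, a docking protein of receptor tyrosine kinases, was at 10.1, 10.0, 8.06 and 10.5 CPM in RW, 1.69, 1.69, 1.65 and 1.35 in aJ1aJ2, and 4.63, 2.29, 3.24, 2.57 and 1.41 in aN1aN2. It fell by 2.60 and 1.77 (adjusted p = 0.00709 and 0.0281, edgeR). Inmt, a methyltransferase of small amines, rose by 1.89 and 1.51 (adjusted p = 0.0127 and 0.0336, edgeR). Galnt15, an enzyme that begins the sugar chains of mucins, was at 22.1 to 31.4 CPM in RW, 69.6 to 84.1 in aJ1aJ2 and 35.2 to 65.9 in aN1aN2, and rose by 1.57 and 0.95 (adjusted p = 0.0106 and 0.0489, edgeR), with a difference of -0.63 (SE 0.18) that was not called. Cirbp, a cold-inducible RNA-binding protein, rose by 1.25 after aJ1aJ2 (adjusted p = 0.027, edgeR) and stood at 0.84 after aN1aN2 (adjusted p = 0.0822, edgeR).

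Ackr1, an atypical chemokine receptor of venules, was at 9.73, 11.6, 9.48 and 8.81 CPM in RW, 5.25, 4.17, 5.31 and 4.00 in aJ1aJ2, and 5.15, 5.46, 4.64, 4.83 and 6.02 in aN1aN2. It fell by 1.08 and 0.92 (adjusted p = 0.0107 and 0.0265, edgeR), and its exons overlap Cadm3 on the same strand. Wnk2, a kinase of the WNK family, rose by 0.89 and 0.85 (adjusted p = 0.0154 and 0.0281, edgeR), with a difference of -0.04 (95% interval -0.34 to 0.25). Csmd2, a large membrane protein, was at 6.64 to 9.21 CPM in RW, 1.03 to 2.74 in aJ1aJ2 and 0.928 to 2.36 in aN1aN2, and fell by 1.89 and 2.37 (adjusted p = 0.0247 and 0.0209, edgeR). Prodh, the first enzyme of proline breakdown, was at 15.8 to 16.3 CPM in RW, 23.8 to 27.8 in aJ1aJ2 and 18.7 to 23.7 in aN1aN2. The 3 groups did not overlap, it rose after aJ1aJ2 by 0.69 (adjusted p = 0.0107, edgeR), and after aN1aN2 it stood at 0.42 (adjusted p = 0.0566, edgeR). Dclk1, a kinase bound to microtubules, was at 13 to 15.5, 4.33 to 6.86 and 6.34 to 10.2 CPM. It fell by 1.35 after aJ1aJ2 (adjusted p = 0.0107, edgeR) and stood at -0.70 after aN1aN2 (adjusted p = 0.0752, edgeR), and its exons overlap Gm42609 on the other strand.

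**Figure D4:**
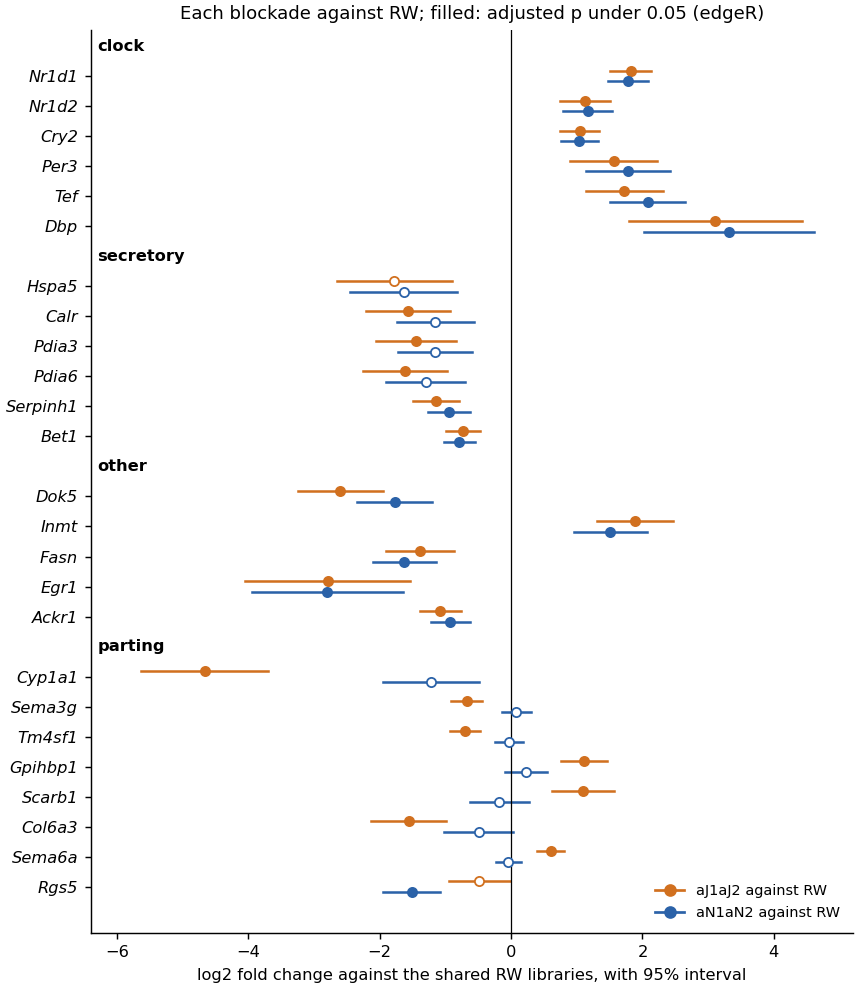
Log2 fold change of each blockade against the same RW libraries (x axis) with its 95% interval, for genes of the clock, genes of the ER and Golgi, 5 other genes and 8 genes ranked by the difference between the blockades; filled points had an edgeR adjusted p under 0.05. Among the clock pairs Nr1d1 lies at 1.82 and 1.78 and Tef at 1.73 and 2.08, whereas Cyp1a1 lies at -4.67 and -1.22.

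Of 14 endothelial genes, all tested, 4 were higher after aN1aN2, 10 lower (49.8% of all genes were lower) and 0 called. Of these 1 did not overlap (Esam), beside 1.86% of all genes. The median was -0.41, or -0.29 in the 7 libraries of highest Tg. Esam, an adhesion molecule of endothelial junctions, was at 49.8, 59.4, 65.0 and 57.8 CPM in aJ1aJ2 and 31.9, 38.3, 42.2, 32.7 and 44.6 in aN1aN2. RW ranged from 42.4 to 47.2, below every aJ1aJ2 library. The arterial list ran the other way, with 7 of 8 genes higher after aN1aN2 (50.2% of all genes were) and a median of 0.40. In that list 1 was called, Sema3g, beside 0.0108% of all genes called higher. Gja5, the connexin of arterial endothelium, was at 2.12 to 3.35 CPM in RW, 0.873 to 2.13 in aJ1aJ2 and 2.16 to 5.79 in aN1aN2 (difference 1.37, adjusted p = 0.466, edgeR). Its exons overlap Gpr89 on the other strand. Efnb2, the ephrin ligand that defines arteries, differed by 0.02. In the 7 libraries of highest Tg the arterial median was 0.42. Of 10 genes of sprouting tip cells 0 were called in any comparison with 13 libraries. In the libraries of highest Tg 2 were called after aJ1aJ2, where 1600 of all genes were, on unchanged aJ1aJ2 and RW libraries. With 13 libraries Esm1 stood at -1.83 after aJ1aJ2 and -1.17 after aN1aN2 with adjusted p of 0.0637 and 0.135 (edgeR).

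Among genes of hormone synthesis no difference between the blockades was called. Apart from Tg, 16 were tested and 0 were called in any comparison with 13 libraries. In the libraries of highest Tg 4 were called after aJ1aJ2, where 1600 of all genes were, and 1 after aN1aN2, where 182 were. Between the blockades 14 were lower and 2 higher after aN1aN2 with 9 libraries, and 15 were higher with the 7 libraries of highest Tg, the median moving from -0.27 to 0.19. Tshr, the receptor for thyrotropin, was at 112 to 170 CPM in RW, 56.6 to 81.2 in aJ1aJ2 and 21.7 to 86.0 in aN1aN2. Every treated library was below RW, with changes of -1.06 and -1.38 that were not called with 13 libraries (adjusted p = 0.219 and 0.0926, edgeR). Both were called in the libraries of highest Tg (-1.08 and -0.90, adjusted p = 0.00183 and 0.0279, edgeR), where the aJ1aJ2 and RW libraries were unchanged. Since these libraries were chosen on Tg, a gene of the same cells, the levels of follicle genes are not free of that choice.

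The medians of several lists moved when replicates 1 and 4 of aN1aN2 were left out. The skeletal muscle list had a median difference of 2.12 with 9 libraries and 0.13 with 7, the cell cycle list 2.07 and -0.11, the smooth muscle list 0.99 and 0.21, and the nuclear genes of complex I 0.41 and -0.05. None of their genes was called between the blockades. Mki67, a marker of dividing cells, showed which library carried the cell cycle list: it was at 17.9, 4.59, 3.10, 222 and 9.33 CPM in aN1aN2, the high value being replicate 4, which also held the thymus RNA. In aJ1aJ2 it ranged from 3.01 to 10.6 CPM.

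**Figure D5:**
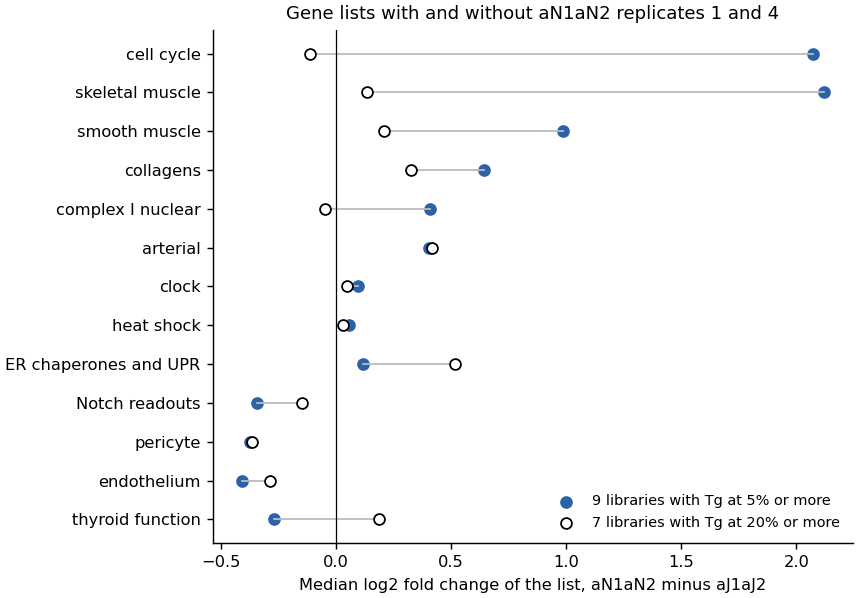
Median log2 fold change between the blockades (x axis, aN1aN2 minus aJ1aJ2) for 13 gene lists, from the 9 libraries with Tg at 5% or more (filled) and the 7 with Tg at 20% or more (open), joined by a line for each list. The cell cycle, skeletal muscle and smooth muscle medians moved towards 0, whereas the arterial and pericyte medians stayed near 0.40 and -0.37.

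Mice of another experiment gave a look at the same genes 7 days after aJ1aJ2 or RW (10 libraries). Of the 74 genes called after aN1aN2 at 5 days, 72 were tested there, 55 had the same sign after aJ1aJ2 and 0 were called, while the sign was the same for 61.6% of all 16678 genes tested in both. Nr1d1 stood at 0.34 (adjusted p = 0.428, edgeR), Rgs5 at -1.53 (adjusted p = 0.0655, edgeR) and Cyp1a1 at -0.43 (adjusted p = 0.762, edgeR).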

How the data were processed

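The authors deposited whole-number read counts per gene and, for the same 50 libraries, FPKM values, which adjust for gene length and sequencing depth. Per the submitters' processing notes GSNAP and limma were used. For the build, the counting program and the use of strand, the labels and notes are silent (not given in the sources used here). Per the labels, the protocol states single-end reads of 50 bp. Symbols were matched by Ensembl ID for 52403 of 52636 genes. Testing used edgeR version 4.0.16 under R version 4.3.3. Genes passed filterByExpr at 10 counts and a total of 15, libraries were scaled by TMM, and glmQLFit (robust) and glmQLFTest were run in 1 fit of 13 libraries from RW, aJ1aJ2 and aN1aN2, two-sided, with Benjamini-Hochberg adjustment over 18529 genes and a threshold of 0.05. Standard errors and 95% intervals came from the F statistic. CPM of a left-out library is on the scale of a fit of all 15. Alternatives used DESeq2 1.42.0 on the counts and limma 3.58.1 on log2(FPKM + 1) and log2(FPKM + 0.1). At 5 days all groups share 1 FPKM scaling. The 15-hour values came from a fit of 15 libraries and the 7-day values from a fit of 10.

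The libraries, gene lists and named genes were chosen with earlier results of these data known. Named were the genes called between the blockades, filled to 10 per direction by lowest p among genes of at least 1 CPM with no overlap, all Notch readouts, receptors and ligands, the 5 of lowest p per direction for each blockade against RW, 6 genes an earlier look at these data had named (Inmt, Galnt15, Cirbp, Dok5, Col6a3 and Serpinh1), and up to 4 members of each list by level or p. Genes such as Dbp, Arntl, Mki67, Fscn1, Rbp7, Ptprb, S100a8, S100a9, Gja5, Tshr and the Ltf values below were picked after their values were seen where they fall outside that rule. Replicates did not agree within sampling noise (lowest chi-square per degree of freedom 18.8 over 22 pairs). The code was tested on simulated data. Between the blockades it recovered 48 of 100 changes of 2-fold and 88 of 100 of 4-fold, with 7 false calls.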

Additional observations from a re-analysis of the deposited data

Results flagged for a closer look

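Within 13 of 180 groups of 4 or 5 libraries examined (named genes and shares of counts), 1 library lay far from the others of its group, where chance alone gives about 1 in 20. In aN1aN2 replicate 1 these were Col6a3 at 119 CPM (the nearest library 60.5), Tuba1a at 24.6 CPM (nearest 15.0), Serpinh1 at 93.0 CPM (nearest 65.7) and the cartilage genes at 0.0658% of counts. In aN1aN2 replicate 4 they were the thymus genes at 0.106% and the B and T cell genes at 0.0732%. Gpihbp1 was low in aN1aN2 replicate 3 at 14.2 CPM and in aJ1aJ2 replicate 5 at 23.8 CPM, and Dok5 was low in the latter too at 1.35 CPM. Tuba1a was high in aJ1aJ2 replicate 4 at 10.4 CPM, Exoc3l in aN1aN2 replicate 5 at 2.248 CPM and Nr1d2 in RW replicate 5 at 32.0 CPM. The cartilage genes were high in RW replicate 4 at 0.0326%.

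The 3 genes whose response differed between the blockades by the edgeR test were Cyp1a1 (log2 fold change 3.45), Sema3g (0.76) and Sema6a (-0.64), each with the same direction in every pair of libraries of the 2 groups.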

How the results depend on the processing

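The count of genes called between the blockades, 3, was 0 with all 15 libraries, with Tg at 10% or more, with library sizes without Tg, with the 2 groups alone and on log2(FPKM + 0.1), 1 without a count filter and on log2(FPKM + 1), 7 with a minimum count of 50, 104 with DESeq2, 67 with voom quality weights, 5 with Tg at 20% or more (added after seeing the data), and 0 to 3 leaving out each library. After aJ1aJ2 the 242 became 33 with all 15 libraries, 537 with Tg at 10% or more, 104 without a count filter, 1033 with the muscle covariate, 1008 with the 2 groups alone, 1044 with DESeq2, 3655 with voom quality weights, 1600 with Tg at 20% or more, and 17 to 564 leaving out each library. After aN1aN2 the 74 became 0, 35, 5, 2, 1789, 1442 and 182 under the same settings except Tg at 10% or more, 48 with RLE size factors, and 1 to 269 leaving out each library. The number of genes whose interval lay within 2-fold, 12710, stayed within 1.5 times under every setting that gives such an interval (all but FPKM) and ran from 11492 to 13710 leaving out each library. Replicate numbers were not used as pairs in the main fit, and whether they mark pairs is not settled. The 12 correlations of deviations between same-numbered libraries ran from -0.384 to 0.469, with a median of 0.165 and 7 above 0.1. For the other 44 pairs the median was -0.0046. With a replicate block the counts were 8 between the blockades, 0 of them among the 3, 123 after aJ1aJ2 and 659 after aN1aN2. Genes with unadjusted p under 0.05 between the blockades (edgeR) then went from 1845 to 4012.

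Signs turned with all 15 libraries for Ptprr (-0.32), Tuba1a (-0.23) and Jag1 (0.059), with the muscle covariate for Hes1 (0.023), Notch1 (0.023), Notch2 (0.016) and Jag1 (0.21), with Tg at 20% or more for Notch1 (0.029), Notch2 (0.073), Dll3 (0.067) and Jag1 (0.17), and with voom quality weights for Dtx1 (0.14) and Jag1 (0.089). They also turned with the replicate block for Dtx1 (0.35), and with Tg at 10% or more for Jag1 (0.036). Leaving out each library, the difference ran from -0.60 to 0.073 for Dtx1, from -0.21 to 0.036 for Jag1 and from -0.15 to 0.067 for Jag2. The cause was not tested for any of these. In all, 1391 values of named genes kept direction and side of the threshold, 136 lost a call, 42 gained one and 21 turned.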

Other observations

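Genes of energy metabolism were set against RW. All 16 genes of fatty acid oxidation lay above 0 after aJ1aJ2 (53.6% of all genes did) and after aN1aN2 (54.5%), with medians of 0.42 and 0.58 and 0 called in either. All 6 brown fat genes also lay above 0 after each blockade, with a median of 1.17 in each. Called higher were 1 after aJ1aJ2 (0.577% of all genes) and 0 after aN1aN2 (0.0917%). The called gene was Ppargc1a, a coactivator of mitochondrial genes. It rose by 1.34 after aJ1aJ2 (adjusted p = 0.0359, edgeR) and stood at 0.91 after aN1aN2 (adjusted p = 0.0965, edgeR). Fasn, the fatty acid synthase, was at 1222, 856, 931 and 739 CPM in RW, 262, 378, 471 and 319 in aJ1aJ2, and 227, 320, 379, 235 and 358 in aN1aN2, and fell by 1.39 and 1.62 (adjusted p = 0.0229 and 0.0236, edgeR). With all 15 libraries the fatty acid oxidation medians were 0.16 and -0.05, and those of brown fat 0.92 and 0.56. In the libraries with Tg at 20% or more they were 0.41 and 0.34 for fatty acid oxidation and 1.16 and 0.84 for brown fat. With the muscle share as a covariate they were 0.22 and -0.02 for fatty acid oxidation and 0.77 and 0.13 for brown fat. The summed brown fat genes took 0.00836% to 0.0296% of counts in RW, 0.0129% to 0.102% in aJ1aJ2 and 0.0134% to 0.0563% in aN1aN2, and their part in the result was not tested.

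Among the immediate early genes, Egr1, a transcription factor of the first response to growth signals, was at 107, 297, 32.1 and 59.7 CPM in RW, 12.3, 15.9, 16.6 and 26.5 in aJ1aJ2, and 17.6, 11.7, 16.3, 26.5 and 17 in aN1aN2. It fell by 2.79 and 2.80 (adjusted p = 0.0385 and 0.0489, edgeR). Interferon-stimulated genes (18 tested) and MHC genes (9 tested) held 0 calls in any comparison, and the median of the former after aN1aN2 moved from -0.02 to -0.45 in the libraries with Tg at 20% or more.

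Ltf, the secreted iron-binding protein lactotransferrin, was at 0.382 to 5.09 CPM in RW, 0.645 to 2.84 in aJ1aJ2, and 8496, 32.1, 3.44, 18.3 and 242 in aN1aN2, with 198 in the left-out aJ1aJ2 library. The values of the 2 blockades did not overlap, those of RW and aN1aN2 did, and the difference between the blockades was not called (adjusted p = 0.466, edgeR).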
